A study of Mus musculus with 16 samples.

Results

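Of 16 mouse skin libraries, 10 were compared by how much hair growth RNA they held, whatever the genotype of the mouse. Every library was ranked by a score, the mean log2(CPM + 1) of inner root sheath keratins (Krt25, Krt27, Krt28, Krt71) and the shaft keratin Krt35, and the 5 highest were set against the 5 lowest. CPM is a count scaled to the same total in every library. A 6th keratin asked for by the rule, Krt85, could not be matched to a target and is not in the score. The other 6 libraries lay between and are only described. Since the sides were chosen by measured values, the levels of these keratins, the comparison of high with low side is a description with no test, and the ranking genes are left out of it.

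The study measured RNA in whole skin of 12-week mice, 4 animals in each of 4 groups, and asked what loss of MCPIP1 in keratinocytes and in myeloid cells does to skin. MCPIP1 is an RNA-degrading enzyme encoded by Zc3h12a, and all 16 mice carried loxP sites on both copies of that gene. Control mice had the genotype Zc3h12a(loxP/loxP) and no Cre. EKO mice added Krt14Cre(Tg/Wt), which is active in basal keratinocytes and so also in the epithelial cells of the hair follicle. MKO mice added LysMCre(Tg/Wt), in which Cre sits at Lyz2, a gene active in neutrophils and macrophages. EMdKO mice had Krt14Cre and LysMCre together. Cells outside these lineages kept the gene, and the labels give no body site of the skin piece and no hair cycle stage. The kit reads a short amplicon of each transcript, so levels are compared between libraries for 1 gene and never between genes.

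Hair follicles pass through growth (anagen), regression (catagen) and rest (telogen). In anagen, hedgehog and Wnt signals accompany division of the matrix cells around the dermal papilla, and their descendants fill with hair keratins, keratin-associated proteins and inner root sheath proteins while melanocytes pass pigment to the shaft. In telogen the lower follicle is short and no shaft is made, and stem cells persist in the bulge.

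The ranking score ran from 0.195 to 10.71. On the high side it was 10.71 in Control mouse 1, 8.63 in EKO mouse 1, 8.24 in Control mouse 2, 7.92 in EMdKO mouse 3 and 7.06 in EKO mouse 3. On the low side it was 0.486 in MKO mouse 3, 0.476 in EMdKO mouse 4, 0.444 in Control mouse 4, 0.350 in MKO mouse 2 and 0.195 in MKO mouse 1. Values of single libraries below keep these orders. Just outside the high side stood Control mouse 3 at 6.58, a gap of 0.474, and just outside the low side stood EMdKO mouse 2 at 0.618, a gap of 0.132. The edges of both sides thus fall inside a gradient, while the sides themselves lie 6.57 apart. The low edge rested on Krt28, at 5.85 CPM in EMdKO mouse 2 and 0.718 to 3.26 CPM on the low side. Every other ranking keratin was near 0 in EMdKO mouse 2 (at most 0.244 CPM), as in the low libraries.

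**Figure D1:**
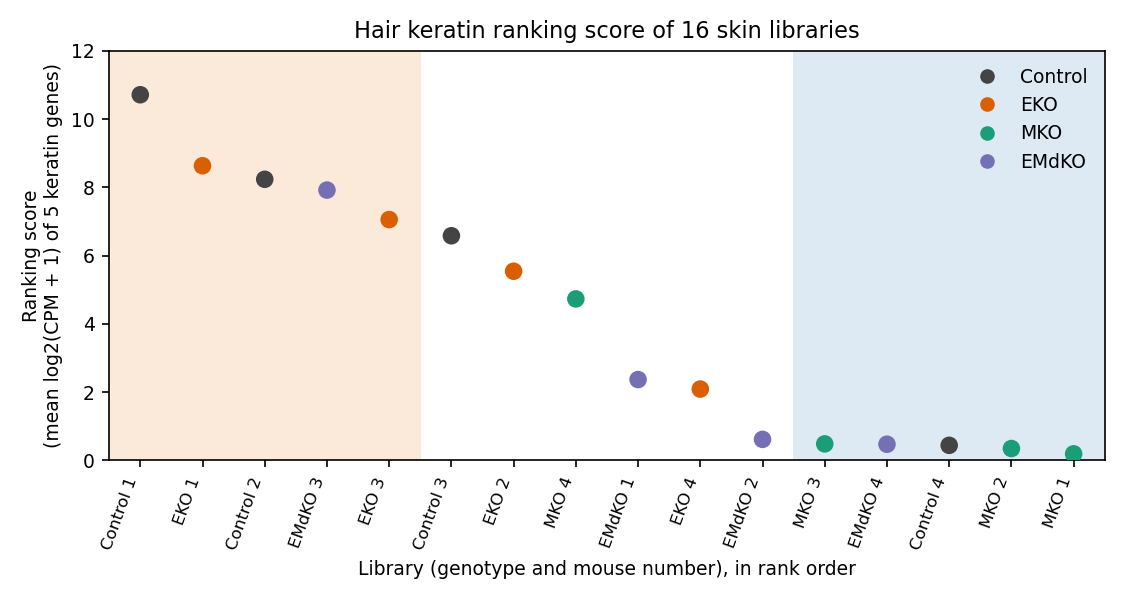
Ranking score (mean log2(CPM + 1) of 5 keratin genes, y axis) of the 16 libraries in rank order (x axis), 1 point a library, coloured by genotype. The orange band marks the 5 high libraries and the blue band the 5 low ones; scores fall off gradually from 10.71 to 0.618 through the middle and are nearly level on the low side.

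Genotypes were spread unevenly. The high side held 2 Control, 2 EKO and 1 EMdKO mice and no MKO mouse, and the low side held 3 MKO, 1 Control and 1 EMdKO mice and no EKO mouse. The middle held 1 Control, 2 EKO, 1 MKO and 2 EMdKO mice. This spread depends on the ranking: without Krt28, or ranked by the median, EMdKO mouse 2 took the place of MKO mouse 3 on the low side. With 4 libraries a side MKO mouse 3 was not on it either. LysM-Cre was carried by 1 of 5 high and 4 of 5 low libraries, and Krt14-Cre by 3 of 5 high and 1 of 5 low ones. Only Control and EMdKO mice stood on both sides, so a difference fitted with a term for genotype rests on Control mice 1 and 2 against Control mouse 4 and on EMdKO mouse 3 against EMdKO mouse 4.

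Some libraries stood apart before any comparison. Control mouse 1 had 2.78% of its counts on keratin-associated protein genes, against 0.0525 to 0.421% in the other high libraries and 0.00128 to 0.00256% on the low side. MKO mouse 1 had the highest skeletal muscle score of the 16 (11.90, a mean log2(CPM + 1) over 19 genes, against 10.22 to 10.55 in the other low libraries). The score of 6 neutrophil genes was 4.31 in Control mouse 2 and 4.70 in EKO mouse 3, against 1.83 to 2.63 on the low side. Depth ran from 6962474 to 12086327 counts over 23930 targets. Markers of whole skin were present in all 16 libraries, the basal keratin Krt5 at 1970 CPM or more, the collagen gene Col1a1 at 9631 or more, the muscle actin Acta1 at 4020 or more and the fat cell hormone Adipoq at 16.1 or more.

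Of 13628 targets with enough counts, 258 (1.89%) were called higher and 24 (0.176%) were called lower on the high side, 282 (2.07%) in all. Called means a difference of at least 2-fold between the side means of log2(CPM + 1), with library sizes scaled by TMM (a factor that evens out composition), and no library of one side overlapping the other. The median difference over all tested targets was -0.02 and 46.8% were positive. Of the 258, 54 were keratin or keratin-associated protein genes by name (Krt or Krtap), here and below. Of the same 258, 145 differed by at least 4-fold, 70 by at least 16-fold, and 226 were highest in Control mouse 1. With a term for genotype all 258 and all 24 kept their direction, and 225 and 23 still differed at least 2-fold. Without Control mouse 1 the counts were 219 higher and 21 lower, and without MKO mouse 1 they were 254 and 66. In bulk tissue, more cells of a type and more RNA per cell cannot be told apart.

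**Figure D2:**
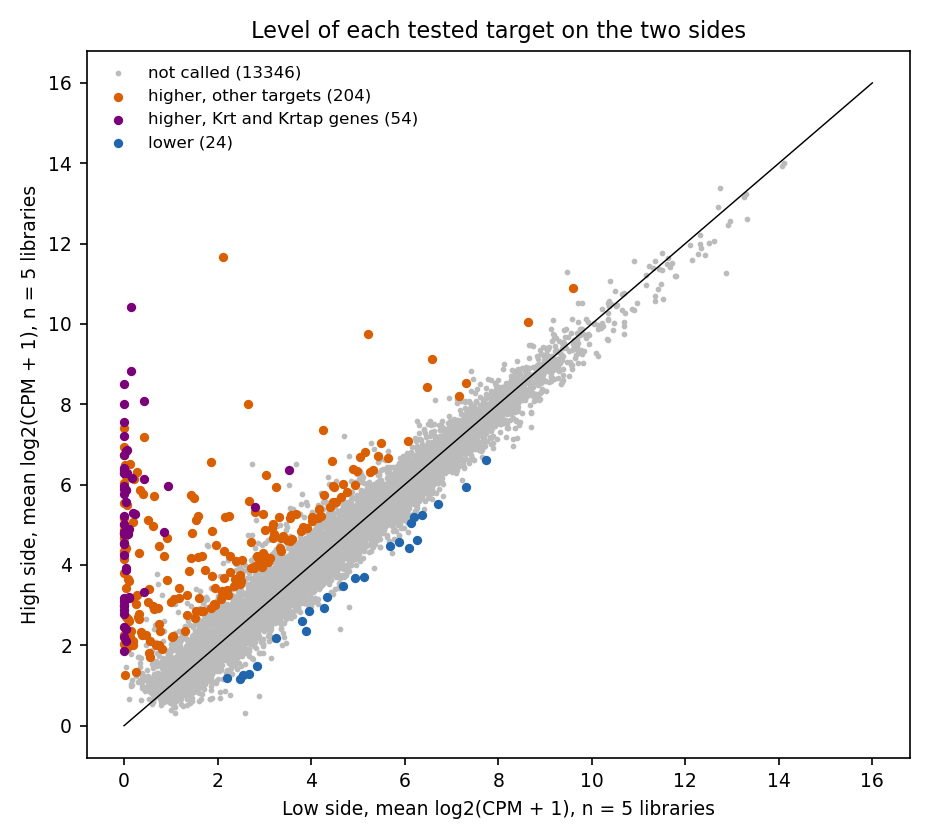
Mean log2(CPM + 1) of each tested target on the low side (x axis) and the high side (y axis), 5 libraries each, with the line of equal levels. The 54 keratin and keratin-associated protein genes (purple) mostly stand near 0 on the low side, the 204 other targets called higher (orange) spread over all levels, and the 24 called lower (blue) stay within 1.67 log2 units of the line.

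Keratins of the hair shaft itself were far higher on the high side. The 12 hair keratins that passed the filter on low counts were called higher, with a median difference of 5.31 on the log2 scale, and since several were near 0 in the low libraries they could pass only through the libraries where they are high, so nothing is read from that share. Krt33a, a type I keratin of the shaft, measured 4057, 328, 423, 407 and 79.7 CPM on the high side and 0, 0.105, 0, 0.126 and 0.314 CPM on the low side. The low libraries held 0 to 2 counts of it, and the high libraries themselves spread from 79.7 in EKO mouse 3 to 4057 in Control mouse 1. The difference was 8.67 ± 0.91 (SE, n = 5 a side, here and below on the log2(CPM + 1) scale, which understates changes of genes near 0). Its neighbours in the type I family, Krt31 and Krt33b, differed by 6.81 ± 0.93 and 6.73 ± 1.04, and the type II keratin Krt81 by 6.43 ± 0.88. Krt33b and Krt81 had no count in any low library, and their high side means were at least 3813-fold and 2732-fold higher than 3 counts over the 5 low libraries. Krt33a and Krt33b, like many keratin-associated protein genes, are near-identical copies, and how their reads were divided is not given in the sources used here.

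The type I shaft keratins lie side by side in 1 cluster on chromosome 11, and the stretches before 3 of them are shown as examples that hold both motifs searched, picked for that from the shaft keratins called higher. The sequences are RefSeq's for GRCm38.p6, the 250 bases before the transcript start, written 5′ to 3′ on the strand of the gene. Krt31 (chr11:100050552-100050801, minus strand), Krt33b (chr11:100029869-100030118, minus strand) and Krt34 (chr11:100041555-100041804, minus strand) are followed by the keratin-associated protein gene Krtap15 (chr16:88828759-88829008, plus strand). Capitals mark CTTTGAA, the core of the site that LEF1 and its TCF relatives bind, and TATAAA, 1 form of the TATA box. Each was searched on both strands.
Krt31: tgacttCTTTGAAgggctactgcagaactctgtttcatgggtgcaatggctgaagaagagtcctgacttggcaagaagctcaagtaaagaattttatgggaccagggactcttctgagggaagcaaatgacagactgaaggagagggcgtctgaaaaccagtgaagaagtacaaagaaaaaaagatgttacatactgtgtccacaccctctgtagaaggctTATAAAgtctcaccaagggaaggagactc
Krt33b: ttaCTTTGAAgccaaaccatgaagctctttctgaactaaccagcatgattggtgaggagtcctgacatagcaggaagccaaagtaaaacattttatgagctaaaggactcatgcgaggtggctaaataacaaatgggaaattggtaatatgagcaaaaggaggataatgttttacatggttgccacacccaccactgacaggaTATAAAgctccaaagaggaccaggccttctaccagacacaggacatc
Krt34: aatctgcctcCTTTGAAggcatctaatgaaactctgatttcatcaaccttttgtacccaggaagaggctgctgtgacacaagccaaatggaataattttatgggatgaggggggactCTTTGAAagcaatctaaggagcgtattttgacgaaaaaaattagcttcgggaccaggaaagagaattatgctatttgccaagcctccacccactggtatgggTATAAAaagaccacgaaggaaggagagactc
Krtap15: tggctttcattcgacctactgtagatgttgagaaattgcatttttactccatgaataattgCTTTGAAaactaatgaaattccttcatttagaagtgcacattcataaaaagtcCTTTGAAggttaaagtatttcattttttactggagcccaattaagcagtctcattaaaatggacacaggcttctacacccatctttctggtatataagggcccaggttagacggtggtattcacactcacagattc
The 3 keratin stretches hold CTTTGAA in their outer part and TATAAA near the start, and Krt34 holds CTTTGAA again near its middle. Krtap15 holds CTTTGAA at 2 places and no TATAAA. Other forms of the TATA box were not searched, so a stretch without TATAAA may still have one. Not all shaft keratins called higher were alike: Krt39 had no TATAAA, Krt84 had no CTTTGAA, and Krt36 and Krt82 had neither set of letters. The letters CTTTGAA were in 5 of 9 matched shaft keratin promoters (55.6%) and in 7 of 36 matched keratin-associated protein promoters (19.4%). They were in 4.46% of all 32851 promoters of that length and in 3.29% of the promoters of tested targets. TATAAA was in 6 of the 9 (66.7%) and 29 of the 36 (80.6%), against 12.4% of all and 7.52% of those of tested targets. Many of these genes are near copies of each other, so their matches are not independent. Over the 258 targets called higher, 200 matched with 233 promoters, of which 7.73% held CTTTGAA and 31.3% held TATAAA. Of the 21 promoters matched to targets called lower, each motif was in 9.52%, which for CTTTGAA is more than among those called higher. CTTTGAA was in 10% of inner root sheath, 8.33% of melanocyte and 5.56% of cell cycle promoters, and TATAAA in 40%, 8.33% and 0%. These are matches of letters and say nothing of binding in these skins.

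Keratin-associated proteins fill the space between the keratin filaments of the shaft. Of the 50 in the files 10 did not pass the filter on low counts, and of the 40 that did 38 were called higher. In 3 of the 40 a low library exceeded 1 CPM, so most could pass only through the libraries where they are high, and nothing is read from that share. Krtap7-1 measured 12098, 762, 1688, 1701 and 179.6 CPM on the high side and 0.238, 0, 0, 0.126 and 0.157 CPM on the low side. It was close to absent from the low side and covered a wide range on the high side, and its difference of 10.28 ± 0.98 was the largest of all tested targets. Krtap15 measured 6350, 151, 312, 442 and 46 CPM on the high side and had no count on the low side, at least 19573-fold higher against 3 counts over the low libraries. Krtap14 and Krtap8-1 also had no count on the low side and differed by 6.28 ± 1.22 and 7.22 ± 0.98. Control mouse 1 was far above the rest for Krtap15, at 6350 CPM where the other 4 high libraries had 46.0 to 442.

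Other shaft proteins followed. In the list of shaft and cuticle genes 7 of 11 tested were called higher (median 4.53). Several, such as Gprc5d and Vsig8, were near 0 on the low side, and nothing is read from that share either. Lrrc15, a leucine-rich repeat membrane protein, measured 489.96, 113, 171, 216 and 31.3 CPM on the high side against 0.238, 0.315, 0.375, 0.126 and 0.784 CPM, a difference of 6.76 ± 0.65. Gprc5d, an orphan receptor of hard keratinizing cells, differed by 6.47 ± 0.82, Vsig8 by 5.53 ± 0.75 and Dsg4, a desmoglein that holds shaft cells together, by 5.36 ± 0.76. Crnn (cornulin), a relative of trichohyalin, measured 831, 136, 184, 193 and 34.9 CPM on the high side and 0 on the low side. Among the largest differences outside genes named Krt or Krtap was also the channel gene Calhm4 (6.75 ± 0.83). So were the less described targets Gm11562 (6.40 ± 0.90), Gm10229 (6.05 ± 0.96) and D730001G18Rik (5.94 ± 0.78), whose families were not looked up.

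The inner root sheath moulds the shaft and is hardened by trichohyalin, cross-linked after peptidylarginine deiminases have changed its arginines. In this list 7 of 11 tested genes were called higher (median 5.19), with 9 differences positive. Several had no count on the low side and could pass the filter only through the libraries where they are high. Nothing is read from that share. Tchh, trichohyalin, measured 14721, 2747, 3295, 4374 and 609 CPM on the high side and 3.1, 2.42, 3.5, 6.45 and 2.19 CPM on the low side. At their closest, in EKO mouse 3 and MKO mouse 2, the sides were 94.5-fold apart, and the difference of 9.55 ± 0.77 was the largest outside the keratin families. Padi3, a deiminase, measured 632, 126, 109, 75.4 and 39.9 CPM on the high side and had no count on the low side, at least 2632-fold higher. The sheath keratins Krt73 and Krt72 had no count on the low side either and differed by 8.01 ± 0.65 and 7.56 ± 0.80, and Tchhl1, a trichohyalin relative, by 6.02 ± 0.75. Krt73 was highest in Control mouse 1 (1274 CPM) and next in EKO mouse 1 (378). The sheath factor Gata3, chosen after its values were seen, overlapped between sides at -0.29 ± 0.26.

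**Figure D3:**
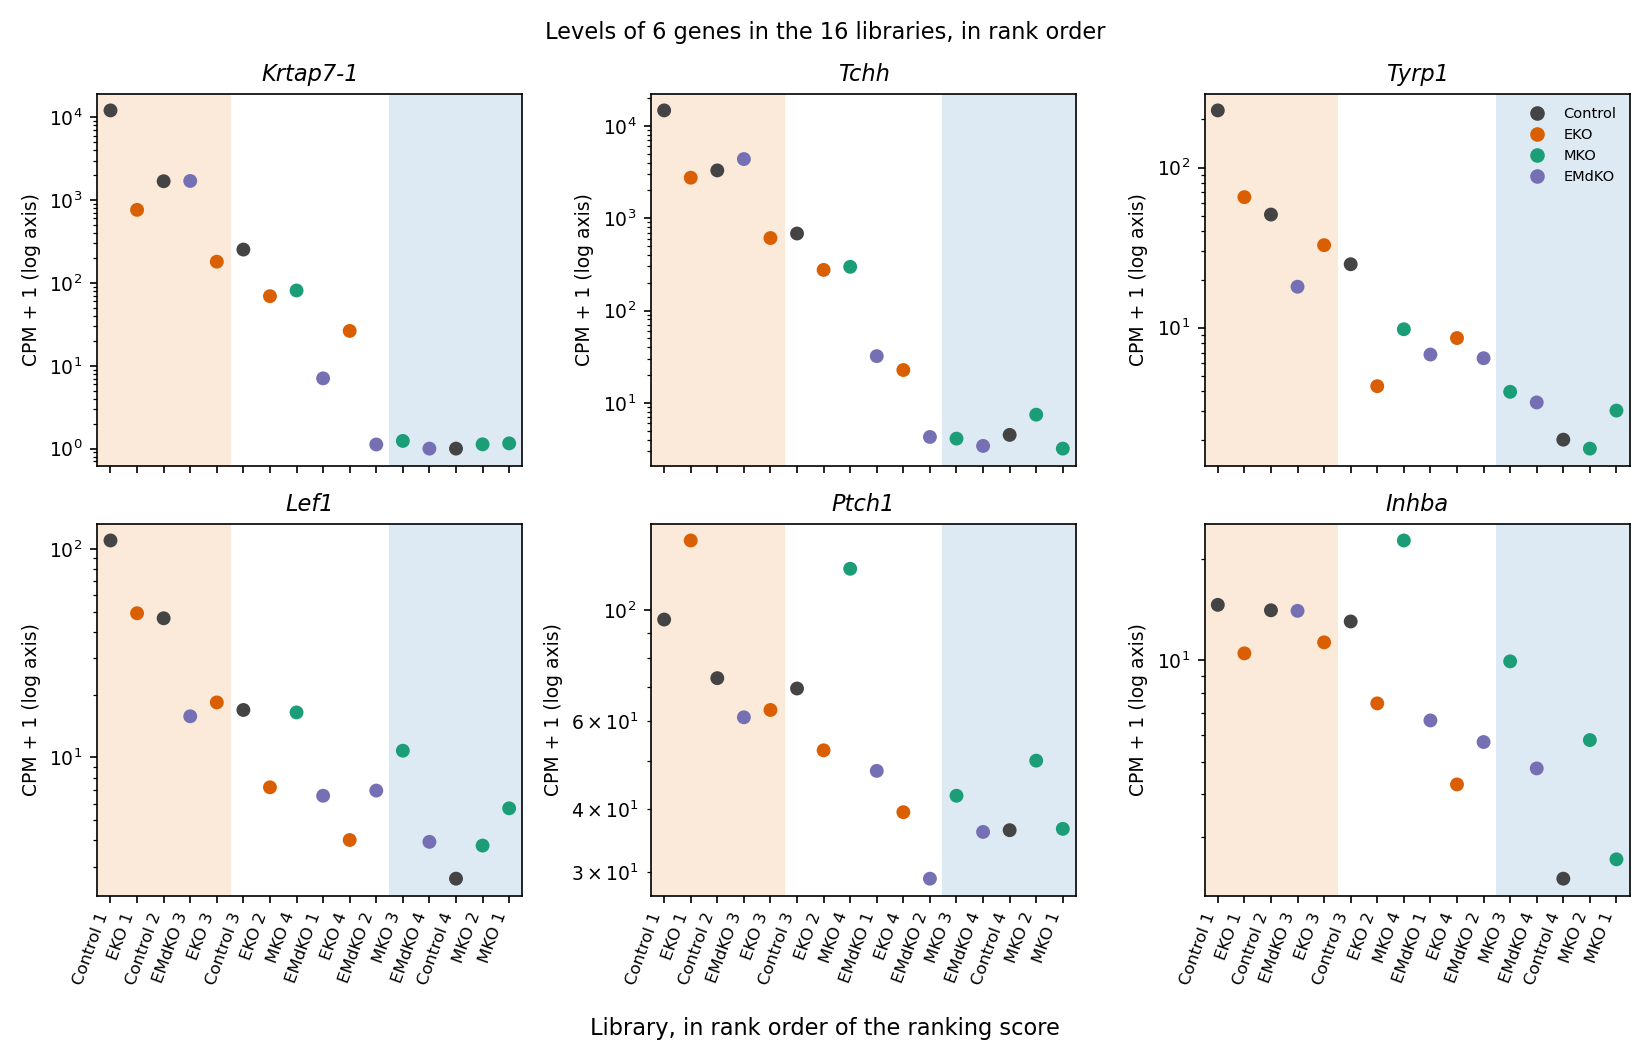
CPM + 1 (y axis, log scale) of 6 genes in each of the 16 libraries in rank order (x axis), 1 point a library, coloured by genotype, high side on orange and low side on blue. Krtap7-1 and Tchh decline through the middle with the rank, whereas Ptch1 and Inhba are high in MKO mouse 4 of the middle, at 120 and 21.7 CPM.

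Transcription factors of the hair matrix and of shaft differentiation differed less. Of 16 tested, 7 were called higher (median 1.05, 15 positive). Of these, Foxe1 and Dlx2 reached at most 0.5 and 0.379 CPM in a low library. Such genes could pass the filter only through the libraries where they are high, so nothing is read from that share. Lef1, which carries Wnt signals to DNA in the matrix, measured 109, 48.1, 45.5, 14.7 and 17.4 CPM on the high side and 9.77, 2.94, 1.62, 2.78 and 4.7 CPM on the low side, a difference of 2.98 ± 0.62. Its lowest high library, EMdKO mouse 3, was 1.51-fold above its highest low library, MKO mouse 3. Msx2 measured 184, 61.4, 40.3, 35.6 and 14.7 CPM against 6.08, 5.36, 8.12, 5.56 and 2.98 CPM and differed by 2.93 ± 0.61. Dlx3, a homeobox factor of shaft and sheath, measured 1976, 729, 503, 522 and 147 CPM against 114, 113, 119.6, 91.4 and 54.4 CPM and differed by 2.55 ± 0.63. Both factors were present throughout the low side, and in EKO mouse 3 Dlx3 was 1.23-fold above the highest low library, Control mouse 4. Foxe1 differed by 2.42 ± 0.53 and Hoxc13, a factor that acts on hair keratin genes, by 2.19 ± 0.42. Foxn1, the factor mutated in nude mice, overlapped between sides although Control mouse 1 had 150 CPM against 15.8 to 32.5 in the other high libraries and 6.90 to 16.7 on the low side. Hoxc13 and Foxn1 were chosen after their values were seen.

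Among the growth signals few ligands were called. Shh, the hedgehog ligand of the matrix, measured 5.2, 7.95, 2.16, 1.05 and 1.94 CPM on the high side and 0.238, 0.21, 0.125, 0 and 0.157 CPM on the low side. It was low everywhere but separated the sides, and EKO mouse 1, not Control mouse 1, had the most. The difference was 1.82 ± 0.39. Ptch1, the hedgehog receptor and itself a hedgehog target, measured 94.6, 136, 72.1, 60.04 and 62.1 CPM against 41.6, 35.1, 35.4, 49 and 35.6 CPM and differed by 1.04 ± 0.24. In the hedgehog list these were the 2 called of 9 tested, with a median of 1.17 and 8 positive. Gli1, a hedgehog target chosen after its values were seen, overlapped, since EMdKO mouse 3 had 11.4 CPM and MKO mouse 3 20.5.

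In the Wnt list 1 of 17 tested was called higher (median 0.15). This was the ligand Wnt5a, at 47.8, 23.3, 20.1, 22.9 and 16 CPM on the high side and 10.7, 14.8, 9.87, 9.23 and 11 CPM on the low side, a difference of 1.07 ± 0.28. In the list of BMP, FGF and TGF-beta signals 1 of 17 was called (median 0.10). This was Inhba, a subunit of activin, at 13.6, 9.5, 13.1, 13 and 10.3 CPM against 8.94, 3.78, 1.25, 4.8 and 1.57 CPM. The high libraries were close together for Inhba and MKO mouse 3 reached nearly their level, with a difference of 1.55 ± 0.41. Fgf5, which ends anagen, did not pass the filter on low counts: it was at 14.9 CPM in Control mouse 1 and at most 2.68 CPM in the other 15 libraries. Fgf18, a signal of the resting follicle, measured 13.1, 33, 61.3, 46.2 and 32.6 CPM on the high side and 83.9, 65, 62.6, 85.1 and 45.8 CPM on the low side. Its sides overlapped, since Control mouse 2 and EMdKO mouse 3 stood above MKO mouse 1, with a difference of -0.98 ± 0.39. Fgf5 and Fgf18 were chosen after their values were seen.

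In the dermal papilla list 1 of 13 tested was called higher, although 11 were positive (median 0.87). Corin, a protease of the papilla, measured 13.6, 4.64, 2.45, 1.9 and 0.849 CPM on the high side and 0.715, 0, 0, 0 and 0.157 CPM on the low side, a difference of 1.92 ± 0.53. It neared the low side in EKO mouse 3, so the separation there was narrow.

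Several pigment cell genes were also higher on the high side. Of 13 tested, 7 were called higher and 12 were positive (median 1.87). The called genes Oca2 and Slc45a2 reached at most 0.119 and 0.238 CPM in a low library. Such genes could pass the filter only through the libraries where they are high, so nothing is read from that share. Tyrp1, an enzyme of melanin synthesis, measured 227, 64.4, 49.9, 17 and 31.8 CPM on the high side and 2.98, 2.42, 1, 0.758 and 2.04 CPM on the low side. At their closest, in EMdKO mouse 3 and MKO mouse 3, the sides were 5.72-fold apart, and the difference was 4.31 ± 0.65. Pmel, whose fibrils carry the pigment, measured 159, 44.7, 18.1, 11.5 and 29 CPM against 2.5, 1.89, 2.37, 1.14 and 1.88 CPM and differed by 3.59 ± 0.64. Dct, another melanin enzyme, differed by 2.96 ± 0.58 and Slc24a5, an ion exchanger of the pigment organelle, by 2.88 ± 0.57. EKO mouse 3 ranked below EMdKO mouse 3 yet exceeded it in each of these 4 genes.

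Division genes were shifted rather than separated. All 20 tested cell cycle genes were positive but 3 were called higher (median 0.87), and the median was 0.26 with a term for genotype. Ube2c, which marks cyclins for destruction, measured 89.1, 70.2, 45.2, 63.9 and 60.4 CPM on the high side and 25.9, 33.6, 29.5, 23.1 and 15 CPM on the low side, a difference of 1.35 ± 0.25. Ccna2 (cyclin A2) differed by 1.28 ± 0.33 and by 0.63 with a term for genotype, and Ccnb2 (cyclin B2) by 1.20 ± 0.30 and 0.64. MKO mouse 1 had the lowest cell cycle score of the low side (3.04, the others 3.68 to 4.18). Control mouse 2 (3.90) and EMdKO mouse 3 (4.16) lay within the range of the low side.

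Genes of amino acid supply leaned to the high side. Of 9 tested genes of polyamine synthesis and amino acid transport, 3 were called higher, against 1.89% of all tested targets, and all were positive. The median was 0.59, and 0.25 with a term for genotype. Slc7a11, the cystine importer that also sets the red and yellow pigment of hair, measured 67.4, 7.23, 33.4, 10.8 and 22.7 CPM on the high side and 0.357, 1.47, 0.75, 1.01 and 0.157 CPM on the low side. Its high values did not keep the rank order, with EKO mouse 1 lowest, and the difference was 3.72 ± 0.58. The importers Slc7a8 and Slc7a5 differed by 2.30 ± 0.53 and 1.35 ± 0.37. Odc1, the entry enzyme of polyamine synthesis, overlapped at 0.40 ± 0.32 and was chosen after its values were seen.

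Genes of the stem cells of the resting follicle did not lean to one side as a list. None of 18 tested bulge genes was called and the median difference was 0.01, with 9 positive and 9 negative. Krt15, a keratin of bulge cells, measured 598, 1065, 719.6, 709 and 1439 CPM on the high side and 1712, 1719, 2276, 1614 and 1144 CPM on the low side. The lower values were mostly on the high side, but EKO mouse 3 stood above MKO mouse 1, and the difference was -0.94 ± 0.28 (-1.57 with a term for genotype). Col17a1, which anchors basal cells, differed by -0.67 ± 0.25 and Cd34, a bulge marker chosen after its values were seen, by -0.32 ± 0.24, both with overlap. The labels anagen-like and telogen-like thus rest first on shaft and sheath products of the same kind as the ranking keratins. Genes of other kinds were also called higher, 7 of 16 matrix factors and 7 of 13 pigment cell genes. Some of them were near 0 on the low side and could pass the filter only through the libraries where they are high. Nothing is read from these shares. The Wnt list had 1 of 17, the hedgehog list 2 of 9 and the cell cycle list 3 of 20, against 1.89% of all tested targets. At so low a share, the lack of calls among 18 bulge genes is not read as a result. The sides are called high and low here.

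Other cell types gave few calls. None of the tested genes of adipocytes (22, median 0.05), sebaceous gland (14, 0.40), epidermis (13, -0.01), stress and wound keratins (10, 0.97), fibroblasts (18, -0.11), vessels (11, -0.17) or nerve (8, -0.12) was called. The same held for macrophages (12, median -0.10), mast cells (8, -0.04), dendritic cells (10, -0.05), neutrophils (6, 0.66), the 2 genes of red blood cells (0.67), the clock (15, -0.32) and immediate early genes (15, 0.01). Muscle genes leaned the other way: 19 of 19 were negative (median -0.56) with none called, and their summed level was 27815 to 77970 CPM on the high side and 47714 to 133748 CPM on the low side. Class II antigen presentation genes were negative in 7 of 7 (median -0.50) and class I genes in 9 of 10 (median -0.35). Neutrophil genes summed to 38.0 to 626 CPM on the high side and 69.2 to 115 CPM on the low side, with the highest scores in Control mouse 2 and EKO mouse 3. With a term for genotype 4 of these medians changed sign, to 0.44 for macrophages, 0.44 for mast cells, 0.52 for nerve and -0.02 for the sebaceous gland, and that of the epidermis went to -0.45. The part of these other cells in the differences above was not tested.

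**Figure D4:**
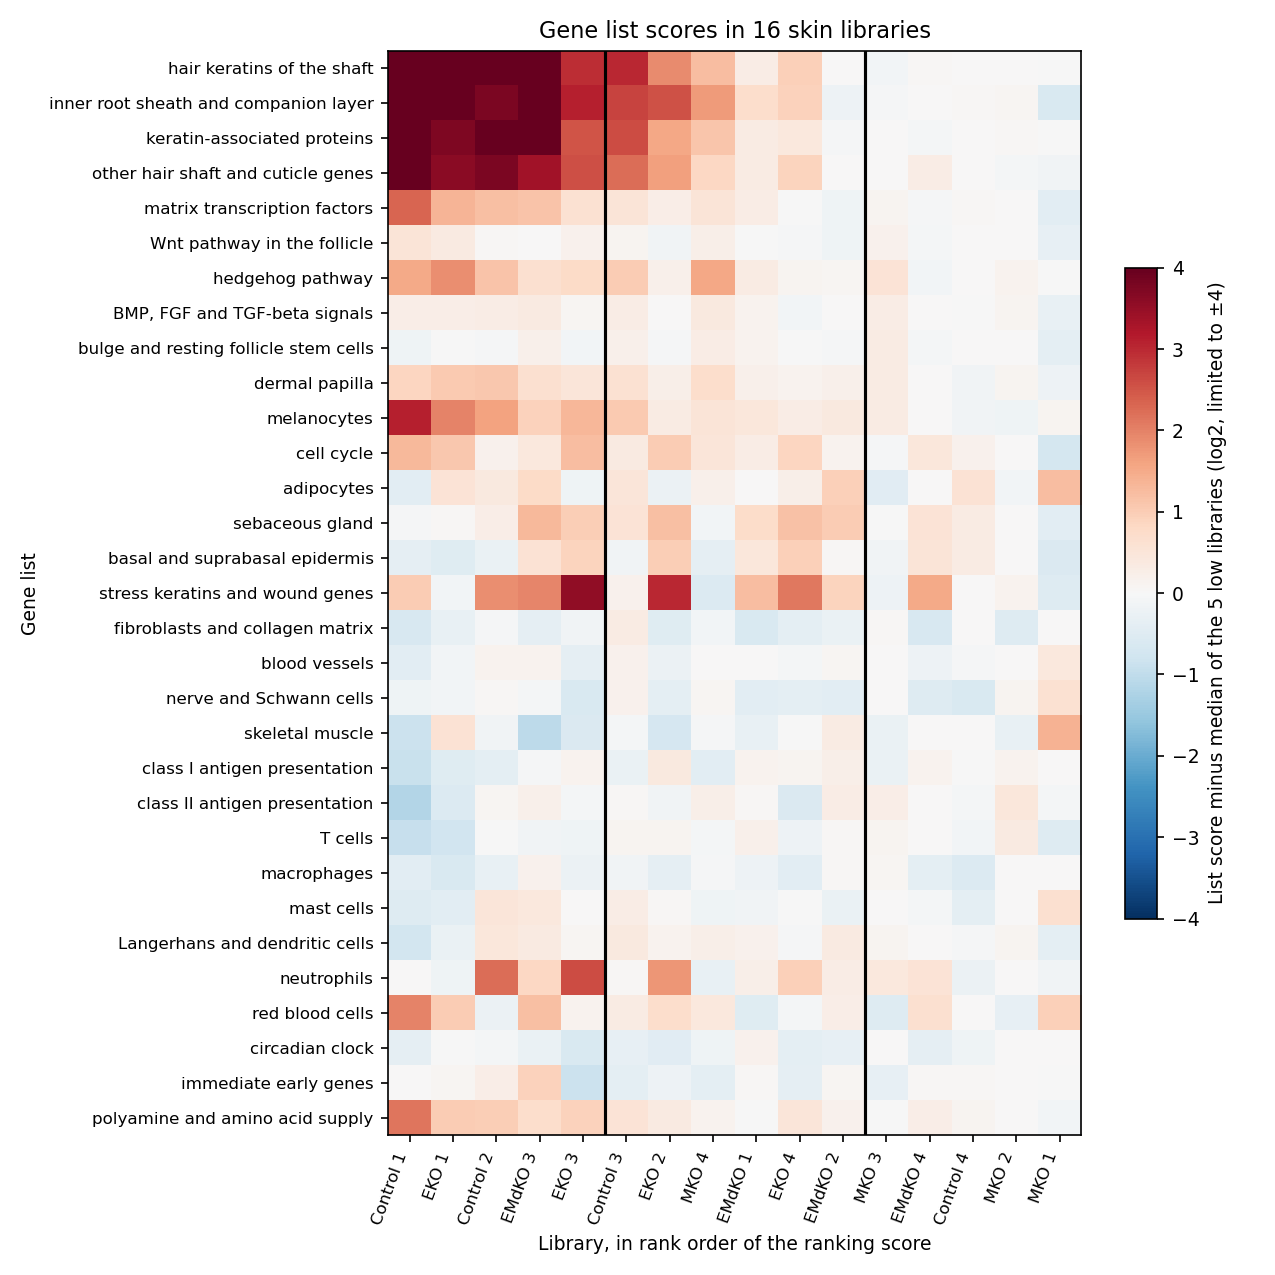
Score of 31 gene lists (rows) in the 16 libraries in rank order (columns), as the mean log2(CPM + 1) of the list minus the median of the 5 low libraries, red higher and blue lower, limited to 4 either way, with black lines at the edges of the sides. Hair shaft, sheath and keratin-associated protein lists fade from left to right, while stress keratins and neutrophils are high in scattered libraries such as EKO mouse 3 and EKO mouse 2.

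The 24 targets called lower on the high side differed by at most 1.67 log2 units, and 12 of them were lowest in Control mouse 1. One was in a fixed list, Cd247, a signalling chain of the T cell receptor, at 2.23, 2.58, 5.18, 3.71 and 4.73 CPM on the high side and 10.7, 7.56, 8.87, 9.6 and 6.11 CPM on the low side (-1.06 ± 0.22). It was the only called gene of 12 tested T cell genes, of which 9 were negative (median -0.44). Ifitm6, of the interferon-induced transmembrane family, measured 12.8, 21.6, 39.3, 17.6 and 18.4 CPM on the high side and 43, 57.2, 59.7, 115 and 81.5 CPM on the low side. Control mouse 2 neared MKO mouse 3, and the difference was -1.67 ± 0.35. Il12rb2, a chain of the interleukin 12 receptor, measured 38, 88.3, 41.7, 68.4 and 82.2 CPM against 199.95, 167, 129, 241 and 96.7 CPM and differed by -1.38 ± 0.34.

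The other named genes were of varied kinds. Btc, betacellulin, a ligand of the EGF receptor, measured 9.29, 9.81, 17.3, 13.3 and 10.7 CPM on the high side and 29.8, 20.1, 51.6, 28.3 and 26 CPM on the low side (-1.26 ± 0.26). The low libraries were all at or above 20.1 CPM for Btc and the high ones at or below 17.3. Cyp4f37, a cytochrome P450, differed by -1.43 ± 0.32, the transporter Abca5 by -1.21 ± 0.18, the homeobox gene Hoxa9 by -1.34 ± 0.36, Serpina3h, of a family of protease inhibitors, by -1.29 ± 0.28, and F830045P16Rik by -1.64 ± 0.37. Daglb, a diacylglycerol lipase, differed by -1.22 ± 0.39 (-0.72 with a term for genotype), with MKO mouse 3 alone at 285 CPM and the other low libraries at 62.1 to 103.

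The 6 middle libraries were not used to choose the targets, but the same score put them in the middle, so their values only describe the gradient. Their median lay between the side means for 247 of the 258 targets called higher and for 24 of the 24 called lower. Such a place is likely for targets chosen to separate the sides. Within the middle, the upper 3 libraries had the higher mean for 226 of the 258 targets called higher (87.6%). The same held for 12 of the 24 called lower (50%) and for 49.3% of all tested targets. The targets called lower thus showed no gradient within the middle.

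**Figure D5:**
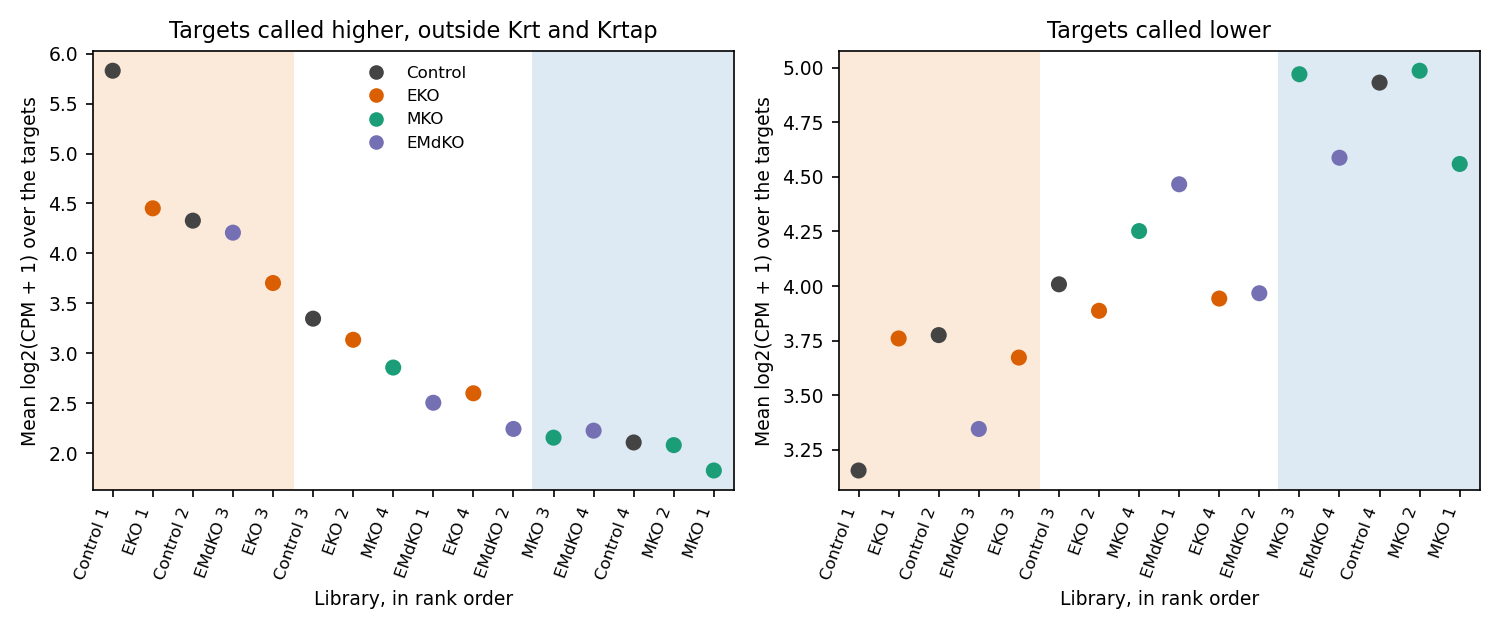
Mean log2(CPM + 1) over the 204 targets called higher outside the keratin families (left) and over the 24 called lower (right), 1 point for each of the 16 libraries in rank order, coloured by genotype, high side on orange and low side on blue. On the left the mean goes from 5.83 in Control mouse 1 to 1.83 in MKO mouse 1; on the right it is 3.16 to 3.78 on the high side and 4.56 to 4.99 on the low side, with the middle between and not ordered.

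One middle library was high for growth signals and intermediate for hair products. MKO mouse 4, at rank 8, had 120 CPM of Ptch1, 59.1 of Gli1 and 3.14 of Shh, each above at least 3 of the 5 high libraries, and 21.7 CPM of Inhba, the highest of the 16. Its shaft and sheath products lay between the sides, with Krt33a at 13.9 CPM, Krtap7-1 at 80.1 and Tchh at 297. EKO mouse 4 had Ptch1 (38.5 CPM) and Shh (0.131) within the range of the low side, and the cyclin gene Ccna2 (125) within that of the high side. These libraries were picked after their values were seen, and each is 1 mouse.

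The targeted gene Zc3h12a was not called. It measured 19.4, 11.7, 21.7, 5.71 and 7.4 CPM on the high side and 29.2, 4.41, 27.4, 35 and 17.1 CPM on the low side. Levels were split by genotype more than by side: the 3 libraries of Krt14-Cre carriers on the high side had 5.71 to 11.7 CPM and the low EMdKO library 4.41, and the other 6 libraries of both sides had 17.1 or more. The difference was -0.64 ± 0.60, and -0.09 with a term for genotype.

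Genotype itself can be tested, since the rule did not use it. The quasi-likelihood test of edgeR over 13633 targets, with p-values adjusted over all of them (Benjamini-Hochberg), called no target (0%) in EKO against Control mice. At an unadjusted p under 0.05 it listed 940, while DESeq2 called 59 (0.451%) and limma-voom 4. Without EKO mouse 1 the edgeR count was 127, of which 113 were up. In MKO mice it called 4 (0.0293%), all up: the scavenger receptor Marco of macrophages, the inhibitory receptor Siglece of myeloid cells, the interferon-induced GTPase Gbp2b, and Mrgprg, of a family of sensory neuron receptors. Leaving out any 1 Control library left 1 call in that contrast. DESeq2 called 116 (0.869%), 28 up and 88 down, and limma-voom 0, so the balance of directions was not the same in all tools. In EMdKO mice it called 4 (0.0293%), Marco, Siglece and Gbp2b, which rose, and Zc3h12a, which fell by 2.21 on the log2 scale (SE 0.24, adjusted p = 0.000448 in edgeR). Without EKO mouse 1 that count was 40, and DESeq2 called 73 (0.536%) and limma-voom 8. In EKO mice Zc3h12a was at -1.52 (SE 0.23, adjusted p = 0.0821 in edgeR). None of these 5 targets called by edgeR was among those called between the sides. The 3 contrasts share the 4 control libraries.

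Whether hair genes differed between genotypes was not the same in all tools. The median log2 fold change of the 12 shaft keratins in edgeR was -3.15 in EKO, -7.68 in MKO and -3.16 in EMdKO mice. These values compare group means of counts, in which Control mouse 1 weighs most. The mean log2(CPM + 1) of these keratins was 8.15, 5.25, 3.43 and 0.397 in Control mice 1 to 4. It was 4.83, 2.29, 3.36 and 1.35 in EKO, 0.379, 0.414, 0.281 and 1.65 in MKO, and 0.707, 0.42, 5.32 and 0.439 in EMdKO mice 1 to 4. In edgeR, no tested gene of the shaft, sheath, matrix, melanocyte or cell cycle lists was called in any contrast, and limma-voom called none of them either. DESeq2, which called 0.659% of all targets lower in MKO mice, called 5 of 12 shaft keratins lower there, 14 of 40 keratin-associated protein genes, 5 of 11 other shaft genes, 1 of 11 sheath genes, 1 of 16 matrix factors (Foxn1) and 3 of 13 melanocyte genes (Pmel, Trpm1 and Tyrp1). In EMdKO mice, where it called 0.242% of targets lower, Krtap12-1 was the only one of these genes called, and in EKO mice (0.0535% lower) there was none. Krt33a had a log2 fold change of -8.29 in MKO mice in edgeR (SE 2.73, adjusted p = 0.334), with MKO mouse 4 alone above 1 CPM. Slc7a11 had -5.07 (SE 1.17, adjusted p = 0.331) and Pmel -3.98 (SE 1.12, adjusted p = 0.331) in that contrast and tool, and DESeq2 called all 3. Il1f9, an epidermal cytokine gene, had 1.82 in EKO mice (SE 0.42, adjusted p = 0.305 in edgeR) and 1.71 in EMdKO mice (SE 0.42, adjusted p = 0.313 in edgeR). DESeq2 called Il1f9 in both, and between the sides it overlapped with a difference of -0.07 ± 0.66.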

How the data were processed

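Whole-skin RNA of 16 mice, 4 a genotype, was compared, with genotype and mouse number read from the labels. The deposited values are unnormalized read counts, 1 per amplicon target. The tools named in the submitters' processing notes are HTSeq 0.6.0 and DESeq2 1.18.1. Libraries used the Ion AmpliSeq mouse transcriptome kit per the labels. The aligner and genome build are not given in the sources used here. Of 23930 targets 22562 received a symbol, 22452 through RefSeq (GRCm38.p6) and 110 through GENCODE vM21. The 5 summary lines (3.11 to 5.25% of reads) were left out. Of 472 listed genes 451 were matched, and Krt85 was among those not matched.

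Ranking used plain CPM, and sides were compared on log2(CPM + 1) with TMM scaling over 13628 targets (edgeR's default filter kept 13633, less the 5 ranking genes). Genotypes were tested with edgeR 4.0.16 (quasi-likelihood, 12 residual degrees of freedom, biological coefficient of variation 0.310) in R 4.3.3, adjusted p under 0.05 being a call. The side members, the gene lists and the tests were chosen with earlier results of these data known. Named genes are Zc3h12a, the 10 largest differences each way among called targets outside the keratin families (mean log2(CPM + 1) of at least 2), up to 4 called members of each list or its 2 most abundant members, 4 keratin-associated protein genes, and the called targets or smallest p of each genotype contrast. One of these genes is not reported here. Alternatives included DESeq2 1.42.0 and limma-voom (limma 3.58.1). On simulated counts over 13518 genes the edgeR step for EKO against Control recovered 26% of 50 genes changed by 1 on the log2 scale and 100% of 50 changed by 2. The simulation gave every gene the same dispersion and changed only genes above a low mean level. Genes as variable between mice as the hair genes were not simulated, so these shares do not apply to them. Labels name separate animals. Tables and figures used python 3.11.15 and matplotlib 3.10.9.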

Additional observations from a re-analysis of the deposited data

Results flagged for a closer look

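In 248 checks of a highest or lowest library against the others of its side or group, a library stood apart 16 times. Chance alone gives about 5% of checks, so this number is close to that of chance. The checks also overlap, as for the skeletal muscle score and its genes Acta1 and Tnnt3 in MKO mouse 1. The 16 cases fell on 7 libraries, 9 of them on MKO mouse 1. Within the MKO group the ranking score was 4.733 in mouse 4 and 0.195 to 0.486 in the other 3. On the low side MKO mouse 1 stood apart most often. It had the lowest inner root sheath score (2.495, the others 3.08 to 3.19), the lowest matrix transcription factor score (4.21, the others 4.59 to 4.74) and the highest skeletal muscle score (11.9, the others 10.2 to 10.6). In log2(CPM + 1), its muscle genes Acta1 and Tnnt3 were at 14.18 and 13.98 and its mast cell gene Tpsb2 at 6.819, all above the other low libraries. The sebaceous gene Scd3 was at 6.556, the epithelial gene Epcam at 6.189 and the amino acid importer Slc7a5 at 4.189, all below them.

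MKO mouse 3 had the lowest immediate early gene score of the low side (5.604, the others 5.92 to 5.995) and the highest Corin (0.7782, the others up to 0.210). Gprc5d was at 0.1441 in EMdKO mouse 4 and at 0 in the other low libraries, and Slc24a5 was at 0 in Control mouse 4 and at 0.590 to 0.705 in the others. On the high side Control mouse 1 had a score of polyamine and amino acid supply of 6.465 (the others 5.01 to 5.33), and Control mouse 2 had Alas2, a red cell enzyme gene, at 2.107 (the others 2.72 to 2.97).

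For 6 gene lists the high minus low difference in score had opposite signs in Control and in EMdKO mice. This difference was not tested, and the EMdKO value is 1 mouse against 1. The score differed by -0.1136 in Control and 0.2715 in EMdKO mice for bulge genes, by -0.587 and 0.7643 for adipocytes, and by -0.2256 and 0.7228 for the sebaceous gland. It differed by -0.6399 and 0.0597 for epidermis, by -0.3558 and 0.2637 for fibroblasts, and by -0.08417 and 0.3822 for the list of genes tied to the genotypes.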

How the results depend on the processing

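For the 90 named genes under 27 alternatives of the side comparison, 2367 values moved by less than the pooled SD within the sides and 62 by more. Each side mixes genotypes and the SD is wide for the hair genes, so a move below it can still be large. Of the genes called between the sides 0 changed sign. Targets called lower were the less stable count: 54 with 4 libraries a side, 3 with 6, 1 with 8, 0 where 4-fold was needed, and 8 when Krt28 was left out of the ranking or the median was ranked. Targets called higher numbered 92 with 8 a side and 145 at 4-fold. With 4 a side 1 EKO library was on the high side. Leaving out 1 library gave 219 to 336 called higher and 21 to 66 lower, with 66 without MKO mouse 1, 60 without EKO mouse 1, 48 without EKO mouse 3 and 44 without EMdKO mouse 4. Genotype calls for EKO, MKO and EMdKO mice were 59, 116 and 73 with DESeq2 and 4, 0 and 8 with limma-voom. EKO mice had 3 without a filter, MKO mice had 2 with a replicate block by file number and 1 with the ranking score as a covariate, and fits on the compared groups alone gave 1 for MKO and 10 for EMdKO. Leaving out a library gave 0 to 127 (without EKO mouse 1), 1 to 5 and 2 to 40 (without EKO mouse 1). The mouse number as a replicate block gave 0, 4 and 4. Same-numbered libraries deviated together in 7 of 24 pairs and 5 of 16 libraries correlated best with their own number, so the numbers do not pair them. The causes were not tested. Genes with few counts, such as Shh, are known only to counting error of a few reads.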
